A study of Mus musculus with 2 samples.

Results

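The Zfp zinc finger genes expressed in mouse embryonic fibroblasts were compared between cells with and without the NF-kB subunit p65. Members were the genes whose symbol is Zfp followed by a number, without Zfp36 and its paralogues, and whose mean deposited value over both libraries was at least 18.1. That is about 1 CPM, where CPM is the count of fragments scaled to a common library size. This rule took 323 of the 367 Zfp genes in the table, which were 323 of 12137 genes at or above the same minimum, called measured below. The members were thus chosen by their mean level over both libraries, and their difference between the libraries did not enter the choice except through that mean. Of the members, 23 lay under 18.1 in the p65-null library and 5 under it in the wild-type library, so 28 passed through 1 library alone. Just inside the minimum stood Zfp78, with deposited values of 17.43 in wild-type and 18.77 in p65-null, and Zfp433, with 27.45 and 12.91. Just outside stood Zfp583, with 27.01 and 8.21, and Zfp709, with 10.02 and 22.29.

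The 2 libraries came from immortalised embryonic fibroblasts of C57BL/6 mice, 1 with genotype p65+/+ and 1 with p65-/-, and the design asks how gene expression differs with and without p65. The labels name no stimulus, and which exons the null allele lacks, how the cells were immortalised and whether the cultures share a litter are not stated in the labels. Each genotype had 1 library, so the differences below were not checked in replicates and carry no p-values. Differences between the genotypes and differences between these 2 cultures cannot be told apart. Nor, in bulk RNA, can fewer cells that express a gene be told apart from less of its RNA per cell.

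Most Zfp genes encode proteins with a row of C2H2 zinc fingers, small folds in which a pair of cysteines and a pair of histidines hold a zinc ion and a helix reads DNA bases. Many also carry a KRAB box, which recruits the co-repressor TRIM28 and with it the histone methyltransferase SETDB1, and such proteins are best known for silencing retroelements and for guarding imprinted loci. KRAB zinc finger genes have multiplied by tandem duplication, so they lie in clusters of related copies, while Zfp genes without a KRAB box are often older and stand alone.

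The coding sequence of 1 finger shows how members of this fold can differ in base composition. The lines below give, from GENCODE M21 transcripts (GRCm38), the first finger followed by a canonical linker in 3 neighbouring members that were lower in the p65-null library and in 3 members that were higher. Capitals mark the codons of the zinc-binding cysteines and histidines, and each stretch of 84 bases lies in the last coding exon.
Zfp51, chr17:21463854-21463937, plus strand: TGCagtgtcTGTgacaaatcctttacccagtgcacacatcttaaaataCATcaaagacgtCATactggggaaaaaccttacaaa
Zfp53, chr17:21508472-21508555, plus strand: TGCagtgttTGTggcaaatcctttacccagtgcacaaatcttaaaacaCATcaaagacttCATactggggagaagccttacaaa
Zfp52, chr17:21560453-21560536, plus strand: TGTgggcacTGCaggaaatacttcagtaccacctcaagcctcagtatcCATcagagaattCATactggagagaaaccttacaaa
Zfp13, chr17:23576711-23576794, minus strand: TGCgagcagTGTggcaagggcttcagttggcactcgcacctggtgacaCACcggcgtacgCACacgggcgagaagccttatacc
Zfp316, chr5:143255069-143255152, minus strand: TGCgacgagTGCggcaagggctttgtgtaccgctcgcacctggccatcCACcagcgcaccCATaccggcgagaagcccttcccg
Zfp358, chr8:3496221-3496304, plus strand: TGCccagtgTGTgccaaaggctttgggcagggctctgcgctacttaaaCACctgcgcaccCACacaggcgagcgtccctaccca
The finger of Zfp51 matched that of its neighbour Zfp53 at 77 of 84 bases and that of Zfp52 at 53. The GC content of the stretch was 39.3% in Zfp51, 40.5% in Zfp53 and 44.05% in Zfp52, against 61.9% in Zfp13, 66.7% in Zfp316 and 61.9% in Zfp358. Zfp13 belongs to the same gene cluster of chromosome 17 as Zfp51, Zfp52 and Zfp53, at its other end.

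Rela, which encodes p65, was counted at 1918 fragments in wild-type and 198.5 in p65-null (a read pair is 1 fragment and a mate counted alone 0.5), or 90.5 and 13.1 CPM after scaling by the trimmed mean of M values. The p65-null library thus held 6.90-fold less of it (5.96 to 8.03), which goes with the label. Intervals here and below are exact 95% Clopper-Pearson intervals and cover counting error only, and log2 ratios are p65-null over wild-type. The libraries held 20794476 wild-type and 15441394 p65-null fragments. All 11 fibroblast markers found were measured in both libraries, with summed levels of 12690 and 25965 CPM, but 8 were higher and 3 lower in p65-null. The lower ones were Thy1, from 82.9 to 9.64 CPM, Dcn, from 104 to 64.8, and Pdgfrb, from 199 to 150.1, while S100a4 went from 121 to 1508. The sums were 0.118 and 2.61 CPM for 5 epithelial markers, 20.6 and 9.57 for 5 leukocyte, 3.40 and 2.18 for 4 endothelial, 1.01 and 11.9 for 3 pluripotent and 409 and 84.0 for 5 neural markers. In the p65-null library the pluripotent sum was mostly Sox2, with 2 fragments in wild-type and 143.5 in p65-null, and in both libraries the neural sum was mostly Nes, at 322 and 48.4 CPM. Cdh1, Epcam, Krt18, Tek and Pou5f1 were at 0 in the wild-type library, and Ptprc and Cdh5 at 0 in the p65-null library. The part of these other markers in the results was not tested.

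The Zfp members were lower in the p65-null library more often than higher. Of the 323, 88 were at least 2-fold lower (27.2%, against 13.8% of all measured genes) and 15 at least 2-fold higher (4.64%, against 12.1%). At 4-fold, 22 members were lower, where the share over all measured genes was 3.53%, and 2 were higher, where it was 4.34%. The whole counting interval lay below 0 for 160 members (41.3% of all measured genes) and above 0 for 73 (38.1%). It lay past 2-fold for 52 lower members (9.12% of measured genes) and for 4 higher ones (7.92%). These counts include the members that passed the minimum only through the library where they are high, 23 of the 88 lower and 3 of the 15 higher ones. Among the 295 members at or above the minimum in both libraries, 65 stood at least 2-fold lower (22.0%) and 12 higher (4.07%), where the shares over the 11357 genes kept in this way were 12% and 9.6%. At 4-fold the counts of these members were 12 lower and 0 higher, where the shares over the genes kept were 1.79% and 2.19%. The interval of these members lay past 2-fold for 43 lower and 2 higher ones. Their median log2 ratio was -0.25 (corrected for GC content and length as described below, -0.04). The median log2 ratio of the members was -0.33 (order-statistic interval -0.51 to -0.19), and that of all measured genes was -0.03. Zfp genes are weakly expressed: their median level was 9.41 CPM in wild-type and 7.53 in p65-null, against 28.2 and 26.7 over all measured genes. Together they took 0.616% of all fragments in wild-type and 0.486% in p65-null. Scaling the libraries to their ribosomal protein genes shifts the median of all measured genes by -0.41 and upper quartile scaling by 0.11, so the levels of both libraries are known only up to such a shift, and members are read against all measured genes.

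The difference followed the base composition of the transcripts. Members had a median transcript GC content of 45.3% (34.4% to 68.7%), below the 50.5% of all measured genes. Across the 323 members, the Spearman correlation of the log2 ratio with transcript GC content was 0.71, against 0.42 across the 11738 other measured genes with a matched transcript, where genes are not independent replicates and all share the same 2 libraries. It was 0.75 over the 258 members with at least 100 fragments, 0.70 with the GC content of the coding sequence (322 members), 0.60 with that of the 3' untranslated region (315) and 0.66 with GC at the third codon position (322). With transcript length it was -0.12. By chromosome, the correlation with transcript GC content was weaker on 13 (0.20, 28 members) and 17 (0.42, 44 members). It was 0.60 over the 81 members on chromosome 7 and 0.68 over the 170 on the remaining chromosomes. GC at the third codon position had a median of 49.0% over the members (22.6% to 84.3%), 36.7% over those at least 2-fold lower and 58.6% over those at least 2-fold higher.

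**Figure D1:**
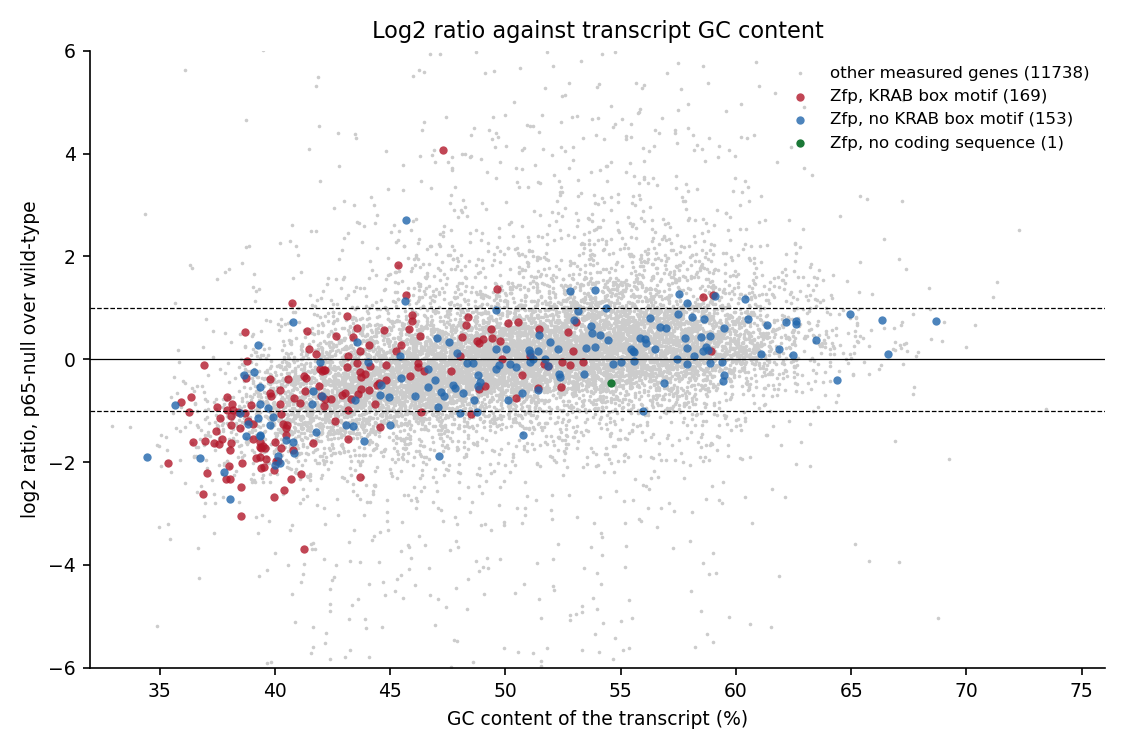
Log2 ratio of p65-null over wild-type (vertical axis) against GC content of the transcript in percent (horizontal axis) for 169 members with a KRAB box motif (red), 153 without (blue), 1 without a coding sequence (green) and 11738 other measured genes (grey); dashed lines mark 2-fold, and 79 other genes lie outside the plotted range. Of the 88 members at least 2-fold lower, 80 sit at the left, below about 45% GC, and 8 lie at higher GC. Zfp429, 1 of the 88, is drawn at the value that 3 fragments would give.

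When all measured genes were cut into 5 classes of equal size by GC content, 156 of the 323 members (48.3%) fell into the class of lowest GC, between 32.9% and 44.7%. In that class the median log2 ratio of the members was -1.04, and 80 of them were at least 2-fold lower and 1 higher. The 2256 other genes of that class were also low, with a median of -0.70 and 34.4% at least 2-fold lower, against 51.3% of the members. The members stood at lower GC within the class (median 40.2%) than the other genes (42.3%). In the next classes the members had medians of -0.11 (47 members, up to 48.6% GC), -0.06 (47, up to 52.4%), 0.24 (29, up to 56.1%) and 0.44 (44, above that). The other genes of these classes had medians of -0.26, 0.05, 0.23 and 0.34. In the class of highest GC, 6 of the 44 members were at least 2-fold higher (13.6%) and 0 lower, against 19.8% and 5.45% of the 2369 other genes.

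In narrower steps of GC content, members under 42% GC still stood below other genes, and members above it did not stand below them more often. Under 38% GC, 68.2% of 22 members were at least 2-fold lower, with a median log2 ratio of -1.56, against 63.2% of 125 other genes, with a median of -1.29. Between 38% and 40% GC, 70.6% of 51 members were at least 2-fold lower, with a median log2 ratio of -1.28, against 48.1% of 285 other genes, with a median of -0.96. Between 40% and 42%, the shares were 55.0% of 40 members and 41.5% of 590 other genes, and the medians -1.26 and -0.84. Between 42% and 44%, they were 18.2% of 33 members and 27.2% of 907 other genes, with medians of -0.66 and -0.56. In the 4 steps above 44% GC, the share of lower members was again below that of other genes. After the correction described next, the members of the 3 steps under 42% had medians of -0.40, -0.33 and -0.31, and the other genes -0.09, 0.05 and 0.03. Members of these 3 steps were also nearer the minimum. Their median p65-null levels were 1.25, 1.85 and 4.42 CPM, against 5.68, 10.5 and 14.6 for the other genes. Members that passed the minimum only through the wild-type library, such as Zfp938 and Zfp429, were kept in these steps. The part of the minimum and of low counts in the excess was not tested.

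A loess correction for GC content and then length, fitted over the 12061 measured genes with a matched transcript, took the members to a median log2 ratio of -0.09, close to the -0.06 of all measured genes. After it, 26 members stood at least 2-fold lower (8.05%) and 18 at least 2-fold higher (5.57%), where the shares over all measured genes were 9.76% and 10.8%. Of the 88 lower members, 25 were still at least 2-fold lower and 5 had turned above 0. Of the 15 higher members, 8 were still at least 2-fold higher and 0 had turned below 0. The correlation of the corrected log2 ratio with GC content was 0.13 over the members. Whether the relation to GC content arose in the cells, in library preparation or in sequencing was not tested, and with 1 library a genotype these cannot be told apart from the genotype.

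**Figure D2:**
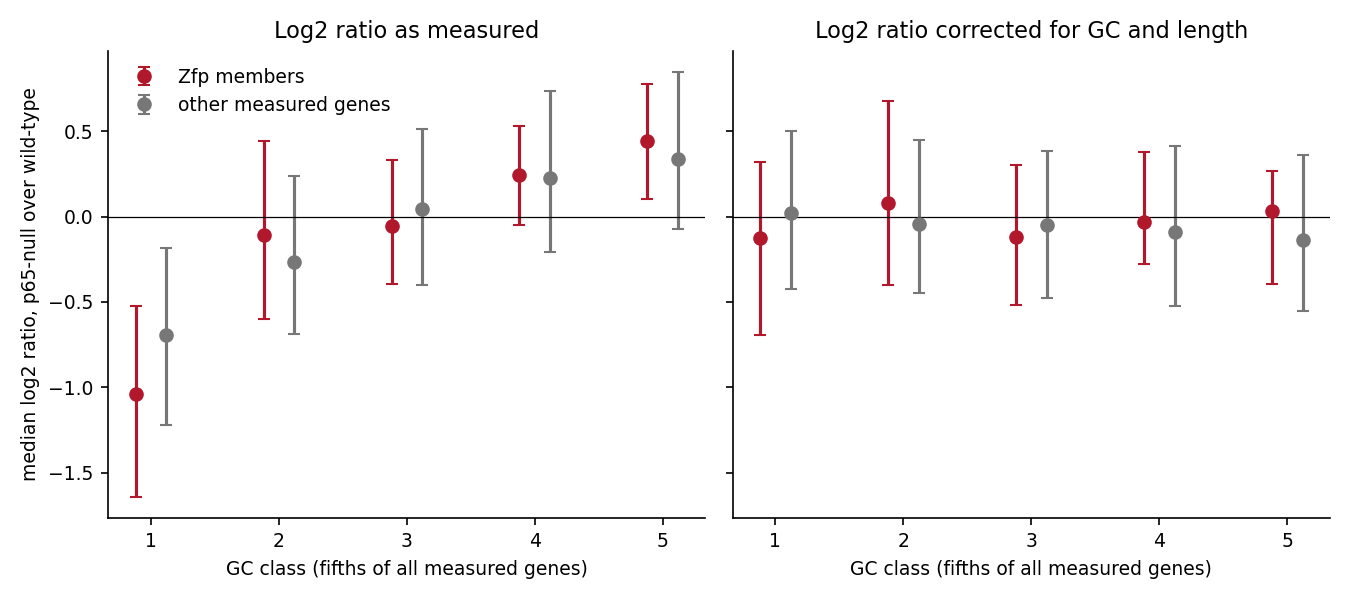
Median log2 ratio of p65-null over wild-type (vertical axis, bars from the lower to the upper quartile) in 5 GC classes of equal size over all measured genes, from the lowest to the highest GC (horizontal axis), for Zfp members (red) and other measured genes (grey), as measured at left and after correction for GC and length at right. At left members go from -1.04 in the lowest class to 0.44 in the highest, and at right their 5 medians lie between -0.13 and 0.08.

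The 12 members that were lower by the largest counting margin were Zfp429, Zfp51, Zfp52, Zfp729b, Zfp948, Zfp971, Zfp932, Zfp397, Zfp938, Zfp638, Zfp53 and Zfp955a, and all of them had a transcript GC content of 41.2% or less. Zfp429 (chromosome 13, 67388924 to 67399917, minus strand) had 54 fragments in wild-type and 0 in p65-null. It was 12.9-fold lower when the 0 was set to a floor of 3 fragments, and at least 10.1-fold lower by its counting interval. It shared 26.1% of its 50-base words with other annotated transcripts, chiefly Rsl1, and the labels do not say how reads of such near copies were assigned. Zfp51 (chromosome 17, 21450374 to 21465591, plus strand), a KRAB gene with 19 fingers, went from 202.5 to 17.5 fragments, or from 9.55 to 1.16 CPM, and was 8.27-fold lower (5.07 to 14.4). Zfp52 went from 503 to 56.5 fragments, 6.36-fold lower (4.83 to 8.53), and Zfp53 from 316.5 to 52, 4.35-fold lower (3.24 to 5.95). Zfp948, next to them on the chromosome, went from 462 to 66 fragments, 5.002-fold lower (3.86 to 6.58). The log2 ratios corrected for GC and length, as described above, were -2.01 for Zfp51, -1.74 for Zfp52, -1.47 for Zfp948 and -1.13 for Zfp53. They shared under 3% of their 50-base words with any other transcript.

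Zfp638, an RNA- and DNA-binding protein known from adipocyte differentiation and from the silencing of retroviral DNA with the HUSH complex, was the most abundant of the 12. It had 1700 fragments in wild-type and 330.5 in p65-null, or 80.2 and 21.8 CPM, and was 3.68-fold lower (3.27 to 4.15). Its corrected log2 ratio was -0.78, inside 2-fold. Zfp397 went from 514 to 88 fragments (4.17-fold lower, 3.32 to 5.30; corrected -1.04). Zfp938 went from 94.5 to 11 fragments (6.14-fold lower, 3.28 to 12.7; corrected -1.61). Zfp938 and Zfp429, with deposited values of 12.91 and 0 in p65-null, passed the minimum only through the wild-type library, so they had to be lower in p65-null. Zfp729b, Zfp971, Zfp932 and Zfp955a, at 6.54-, 5.82-, 5.59- and 4.42-fold lower, shared between 40.05% and 55.5% of their 50-base words with another transcript, so their reads may belong in part to a copy.

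The 12 members that were higher by the largest counting margin were Zfp454, Zfp185, Zfp316, Zfp358, Zfp362, Zfp839, Zfp13, Zfp791, Zfp688, Zfp108, Zfp395 and Zfp467, and their GC content ran from 45.35% to 60.4%. Zfp454 (chromosome 11, 50872718 to 50887634, minus strand) had 3 fragments in wild-type and 36 in p65-null and was 16.8-fold higher (5.31 to 85.2). Zfp185 (chromosome X, 72987252 to 73031543, plus strand), which despite its name encodes a LIM domain protein of the actin cytoskeleton and held 0 finger motifs, had 7.5 and 35 fragments and was 6.53-fold higher (2.92 to 16.8). Zfp791 had 13.5 and 34.5 fragments and was 3.58-fold higher (1.86 to 7.29). These 3 were at or below 0.637 CPM in the wild-type library and passed the minimum only through the p65-null library, so they had to be higher there. Their corrected log2 ratios were 4.08, 2.96 and 2.17.

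The higher members with deeper counts lay closer to 2-fold. Zfp358 went from 573 to 919 fragments, or from 27.0 to 60.7 CPM, 2.24-fold higher (2.02 to 2.50), and Zfp316 from 363.5 to 599.5, or from 17.2 to 39.6 CPM, 2.31-fold higher (2.02 to 2.64). Their corrected log2 ratios were 0.58 and 0.92. Zfp13 went from 129.5 to 217 fragments (2.35-fold higher, 1.88 to 2.94) and Zfp362 from 166 to 287 (2.42-fold higher, 1.99 to 2.95), with corrected values of 0.67 and 0.82. Zfp467, which favours the adipocyte over the bone fate in stromal cells, went from 78.5 to 119.5 fragments (2.13-fold higher, 1.59 to 2.87; corrected 0.61). Zfp839 and Zfp108, at 2.56-fold each, were the remaining members of this group whose corrected value stayed past 2-fold, at 1.06 and 1.28.

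**Figure D3:**
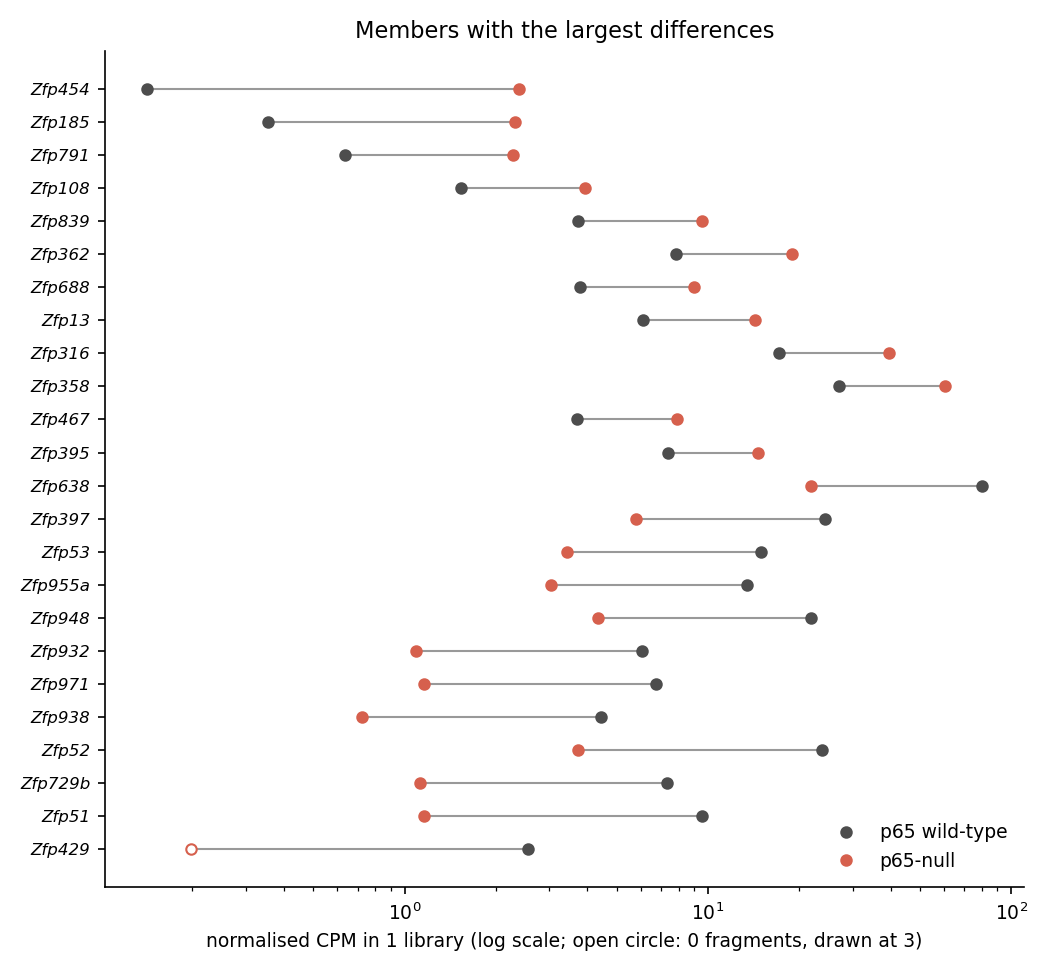
Normalised CPM (horizontal axis, log scale) of the 12 lower and 12 higher members with the largest counting margins, 1 row a gene, in the wild-type library (dark) and the p65-null library (red), joined by a line. Zfp429 had 0 fragments in p65-null and is drawn as an open circle at the level of 3 fragments; Zfp638 and Zfp358 are the most abundant of their groups.

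Members by position formed 28 clusters of at least 3 members each, holding 186 of the 323. A cluster was a chain of annotated Zfp genes on 1 chromosome with at most 500 kb between neighbours. The median log2 ratio was below 0 in 20 clusters and above 0 in 8. It was -1 or lower in 10 clusters, which held 78 members, 49 of them at least 2-fold lower. Over all measured genes the share of lower ones was 13.8%. The clusters kept members that passed the minimum only through the wild-type library, such as Zfp429, Zfp938, Zfp943 and Zfp976. Such members had to be lower, and their part in the cluster medians was not tested. Those 10 clusters all had a median GC content of 40.8% or less, and the 8 clusters above 0 all had 45.8% or more. Across the 28 clusters the Spearman correlation of the median log2 ratio with the median GC content was 0.84. The 137 members in no such cluster had a median of -0.29, and those in one -0.35.

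**Figure D4:**
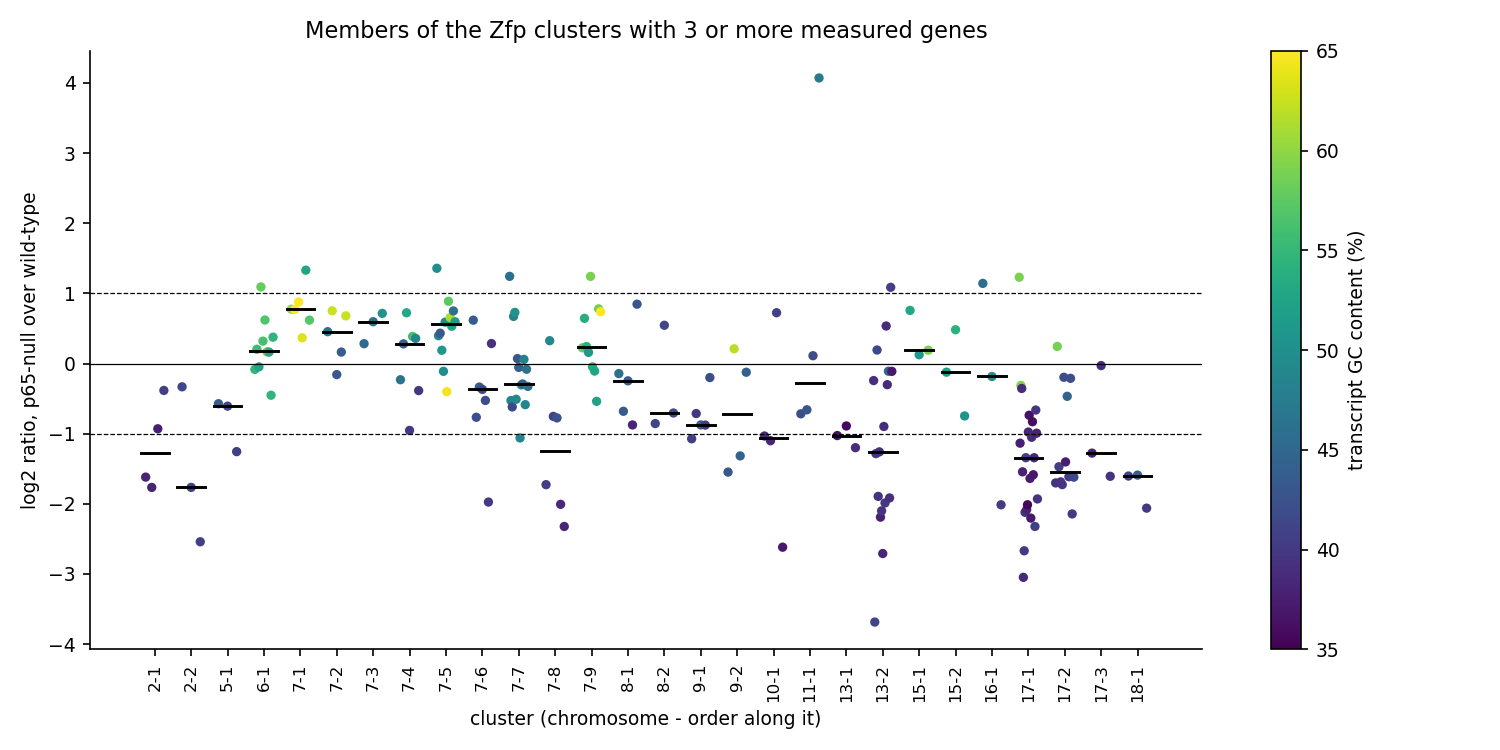
Log2 ratio of p65-null over wild-type (vertical axis) for each of the 186 members of the 28 clusters (horizontal axis, named by chromosome and order along it), coloured by transcript GC content, with a bar at each cluster's median and dashed lines at 2-fold. Clusters of dark, GC-poor members on chromosomes 2, 10, 13, 17 and 18, and the eighth of chromosome 7, lie below -1, and clusters of lighter members on chromosomes 6, 7 and 15 lie above 0.

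Chromosome 17 held the largest group of lower members. Its first cluster (21008941 to 23599755) had 23 annotated Zfp genes, all measured, of which 15 were at least 2-fold lower (65.2%) and 1 was higher (4.35%). The shares over all measured genes were 13.8% and 12.1%. In this cluster the median log2 ratio was -1.34, from -3.05 in Zfp51 to 1.23 in Zfp13, and the 21 members with a KRAB box motif were all below 0. Zfp213 and Zfp13, which lie together at its distal end, lack the motif and have a GC content of 59.5% and 59.1%, had log2 ratios of -0.31 and 1.23. The second cluster (32765496 to 33631716) had 12 members with a median of -1.54. Of these 8 were at least 2-fold lower (66.7%), from Zfp955a at -2.14, and Zfp414 was the highest at 0.24. Zfp871, the most abundant gene of that cluster, went from 1394 to 325.5 fragments (3.06-fold lower, 2.71 to 3.46; corrected -0.48). The third cluster (55864886 to 55956233) had 3 members, from Zfp959 at -1.61 to Zfp119b at -0.03, each sharing over 10% of its 50-base words with another transcript.

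Over the whole of chromosome 17, the median log2 ratio of 44 members was -1.37. Of them, 27 stood at least 2-fold lower (61.4%, against 12.7% of the other measured genes there). After correction the members had a median of -0.50 and the 557 other measured genes of the chromosome a median of -0.40, while as measured the others stood at -0.18. All 3 clusters had corrected medians below 0, at -0.44, -0.52 and -0.33. In the class of lowest GC, the 37 members on chromosome 17 had a median of -1.59 (corrected -0.53), and the 52 other genes there -1.02 (corrected -0.30).

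On chromosome 13 the second cluster (66670274 to 67827000) had 17 measured members out of 25 annotated genes. Of the 17, 9 were at least 2-fold lower (52.9%, against 13.8% of all measured genes) and 1 was higher (5.88%, against 12.1%). Members such as Zfp429 and Zfp708 passed the minimum only through the wild-type library, so they had to be lower. The median of the 17 was -1.26. They ran from Zfp429 at -3.69, a value set by the floor of 3 fragments, to Zfp874b at 1.09. The near copies Zfp874a and Zfp874b lay on opposite sides: Zfp874a had 84.5 fragments in wild-type and 16 in p65-null, Zfp874b 44.5 and 67.5. The corrected median of the cluster was -0.20, and 9 of its members shared over 10% of their 50-base words with another transcript. The first cluster of that chromosome, with 3 members, had a median of -1.03 that turned to 0.13 after correction.

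Chromosome 7, which held the most members, went the other way. Of its 81 members, 5 stood at least 2-fold lower (6.17%) and 4 higher (4.94%), against 5.43% and 15.8% of the 792 other measured genes there. The median log2 ratio of the members was 0.22 and the corrected median 0.19, against 0.28 and 0.01 for the other genes of the chromosome. Of its 9 clusters, 6 had a median above 0 and 8 a corrected median above 0. The first (4915181 to 5053723), with 6 members and a median GC content of 62.0%, had a median of 0.77 (corrected 0.25), from Zfp628 at 0.37 to Zfp784 at 1.33. The third (7114683 to 7209998), with 3 members, had 0.60 as measured and 0.59 after correction, from Zfp418 at 0.28 to Zfp954 at 0.71. The fifth (24081877 to 25227876), with 12 members, had a median of 0.56 (corrected 0.40), from Zfp428 at -0.40 to Zfp108 at 1.36. The seventh (29768552 to 30169775), a run of 15 members, ranged from Zfp566 at -1.06 to Zfp14 at 1.24, with a median of -0.29 (corrected 0.16). The eighth (42473386 to 43618279) was the 1 cluster of the chromosome with a median under -1, at -1.25 over 6 members (corrected -0.40), from Zfp976 at -2.32 to Zfp658 at 0.33. In the class of lowest GC, the 25 members on chromosome 7 had a median of -0.39 (corrected 0.19), above the -1.13 of 22 members on chromosome 13 (corrected -0.17) and the -1.59 on chromosome 17. Within the class these members differed in GC content, with a median of 42.2% on chromosome 7, 39.1% on chromosome 13 and 38.7% on chromosome 17. The 63 other genes of the class on chromosome 7 had a median of -0.65 (corrected 0.17).

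**Figure D5:**
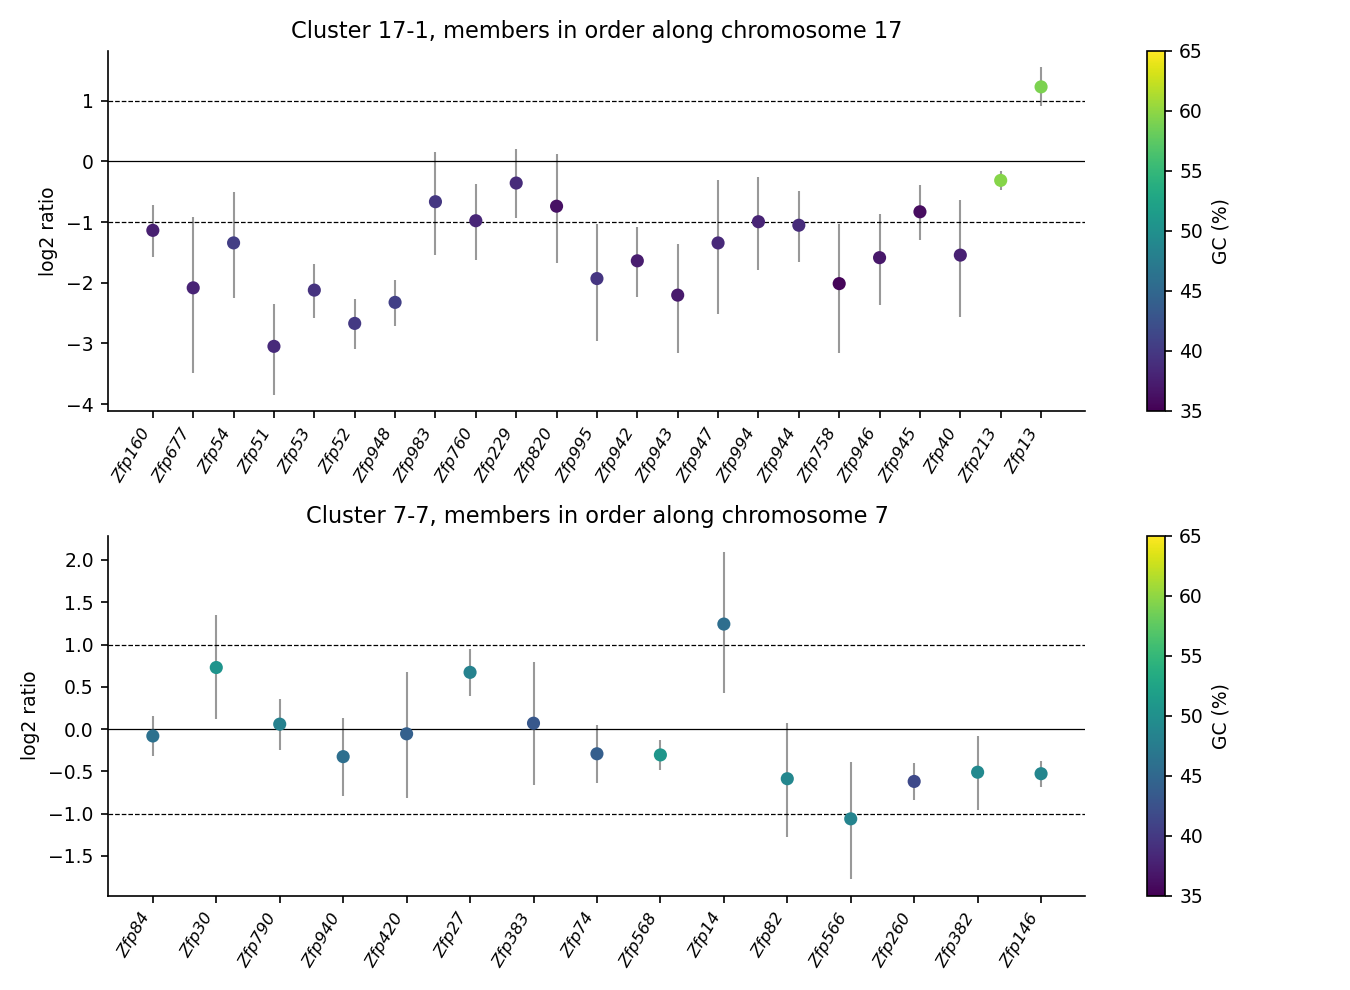
Log2 ratio of p65-null over wild-type (vertical axis, bars are 95% counting intervals) of each member in its order along the chromosome, coloured by transcript GC content, for the first cluster of chromosome 17 (23 members, upper panel) and the seventh of chromosome 7 (15 members, lower panel). In the upper panel all members but Zfp13 lie below 0; in the lower panel the members lie on both sides of 0.

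Other clusters were small. The pair on chromosome 2 had medians of -1.27 (4 members, from Zfp345 at -1.77 to Zfp937 at -0.38) and -1.77 (3 members, from Zfp971 at -2.54 to Zfp931 at -0.33), with corrected medians of -0.14 and -0.98. The cluster of 3 members on chromosome 18, Zfp397 at -2.06, Zfp24 at -1.60 and Zfp35 at -1.59, was at least 2-fold lower throughout and lacks the KRAB box motif. Its corrected median was -1.04, the single cluster at or below -1 after correction. The 316 other measured genes of chromosome 18 were also low, with a median of -0.48 (corrected -0.43) and 30.7% at least 2-fold lower. The 4 members on chromosome 10, from Zfp938 at -2.62 to Zfp873 at 0.72, had a median of -1.07, which the correction took to 0.00. On chromosome 11, the cluster of Zfp454 ran from Zfp2 at -0.72 to Zfp454 at 4.07 around a median of -0.27. On chromosome 16, Zfp597 at -2.01 (243 and 43 fragments) and Zfp174 at 1.14 (26 and 41) lay in 1 cluster of 3. The 10 members on chromosome 6 ran from Zfp862-ps at -0.45 to Zfp467 at 1.09 with a median of 0.18, and 0 were at least 2-fold lower.

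Clusters on chromosomes 5, 8, 9 and 15 lay within 2-fold in their medians. On chromosome 9 the 5 members from Zfp26 at -1.07 to Zfp846 at -0.20 had a median of -0.88 (corrected 0.10), and the 4 from Zfp599 at -1.55 to Zfp653 at 0.21 a median of -0.72 (corrected -0.70). On chromosome 8 the medians were -0.25 (Zfp930 at -0.88 to Zfp963 at 0.85) and -0.71 (Zfp617 at -0.86 to Zfp882 at 0.54). On chromosome 5 it was -0.61 (Zfp68 at -1.26 to Zfp113 at -0.57). On chromosome 15 the medians were 0.19 (Zfp623 at 0.12 to Zfp41 at 0.76) and -0.12 (Zfp7 at -0.75 to Zfp647 at 0.48). The other chromosome 7 clusters had medians of 0.45 (Zfp667 at -0.16 to Zfp444 at 0.75), 0.28 (Zfp329 at -0.95 to Zfp324 at 0.72), -0.37 (Zfp850 at -1.98 to Zfp59 at 0.62) and 0.23 (Zfp764 at -0.54 to Zfp688 at 1.24). Over all 28 clusters, the correction turned the sign of 11 medians and left 13 below 0 and 15 above.

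Features of the encoded proteins went along with GC content. Translated coding sequences of 322 members held a median of 10 finger motifs and at most 36, and 169 of them held a KRAB box motif. Members with the motif had a median log2 ratio of -0.61, with 60 of 169 at least 2-fold lower (35.5%) and 7 higher (4.14%). The 153 without it had a median of -0.06, with 28 lower (18.3%) and 8 higher (5.23%). The shares over all measured genes were 13.8% and 12.1%. Only 145 of the 169 reached the minimum in both libraries. Members that passed it only through the wild-type library had to be lower, and they were kept in these counts. The KRAB members were also poorer in GC (median 42.03% against 50.8%) and less expressed (6.04 against 20.7 CPM in wild-type, 3.43 against 17.9 in p65-null). Within the class of lowest GC the order turned, with medians of -0.99 for 117 members with the motif and -1.15 for 39 without. After correction the medians over all were -0.02 with the motif and -0.13 without. Members with 10 or more fingers had a median of -0.54 (182 members), those with 3 to 9 of -0.12 (112) and those with fewer of -0.18 (28), and the correlation of the log2 ratio with the number of fingers was -0.16.

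Shared sequence also went with lower ratios. The 59 members with over 10% of their 50-base words in another annotated transcript had a median of -0.93 (corrected -0.27) and a median GC content of 40.3%. Of them, 28 were at least 2-fold lower (47.5%) and 2 higher (3.39%). The other 264 had a median of -0.22 (corrected -0.06), with 60 lower (22.7%) and 13 higher (4.92%). The shares over all measured genes were 13.8% and 12.1%. Only 44 of the 59 reached the minimum in both libraries, and members that passed it only through the wild-type library had to be lower. The part of read assignment and of the minimum in these ratios was not tested.

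Among members known to repress retroelements or guard imprints, 9 of 11 listed genes were measured, and 3 were at least 2-fold lower (33.3%, against 13.8% of all measured genes) and 0 higher (against 12.1%). Zfp932, which represses endogenous retroviruses, went from 129 to 16.5 fragments (5.59-fold lower, 3.34 to 9.97; corrected -1.56) and shared 55.5% of its 50-base words with other transcripts, chiefly its neighbour Gm15446. Zfp708 went from 41.5 to 6.5 fragments (4.56-fold lower, 1.98 to 12.5; corrected -1.11), and all of its 50-base words also occur in Gm28557. With deposited values of 36.16 and 7.63, Zfp708 passed the minimum only through the wild-type library. It thus had to be lower in p65-null, and the share of 33.3% includes it. Zfp809, which silences murine leukaemia virus sequences, went from 183 to 52.5 fragments (2.49-fold lower, 1.82 to 3.45; corrected -1.02). The imprint guardians Zfp57 and Zfp445 had log2 ratios of -0.56 (464.5 and 224.5 fragments; corrected -0.84) and -0.78 (947.5 and 394; corrected -0.11). Zfp568, which represses a placental Igf2 transcript, stood at -0.31 (corrected -0.36), and Zfp37, Zfp202 and Zfp273 at -0.55, -0.44 and -0.24 (corrected 0.41, -0.46 and 0.71).

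Of 9 listed factors of adipocyte and mesenchyme fate, 7 were measured, with 1 at least 2-fold lower (Zfp638) and 1 higher (Zfp467). That is 14.3% of them each way, near the 13.8% and 12.1% of all measured genes. Zfp521, which holds back adipocyte differentiation, went from 439.5 to 182 fragments, a log2 ratio of -0.79 (-1.04 to -0.53). Zfp516, a brown fat activator, went from 1672 to 1694 fragments, or from 78.9 to 111.8 CPM, a ratio of 0.50 (0.41 to 0.60). Zfp395 stood at 0.99 (0.69 to 1.29), Zfp217 at 0.00 and Zfp335 at -0.05. The NET family genes Zfp503 and Zfp703 stood at -0.07 and 0.10.

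The 5 most abundant members by CPM all lacked the KRAB box motif. Zfp106, an RNA-binding protein of nerve and muscle, had 6082 fragments in wild-type and 2280 in p65-null, which is 31.6 and 16.6 CPM per kb of transcript, and a log2 ratio of -0.93 (-1.001 to -0.86). Zfp207, a spindle protein that loads Bub3 onto kinetochores, had 5100 and 2471 fragments and the highest level per kb of these 5, at 154 and 104 CPM, with a ratio of -0.56 (-0.63 to -0.49). Zfp740 had 2996 and 2058 fragments and a ratio of -0.06 (-0.14 to 0.02), so its interval spans 0. Zfp706 had 2894 and 842 fragments, or 136.5 and 55.6 CPM, and was 2.46-fold lower (2.27 to 2.66; corrected -0.69). Zfp516, above, was the fifth and the single one of them that was higher.

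Other members that act on RNA or protein lay mostly within 2-fold. Of 9 listed genes for RNA, ribosome and spindle proteins, 2 were at least 2-fold lower (22.2%), Zfp638 and Zfp871, and 0 were higher. The shares over all measured genes were 13.8% and 12.1%. After correction 0 of the 9 were past 2-fold in either direction. Zfp598, the ubiquitin ligase that senses collided ribosomes, stood at -0.43 and Zfp622, a factor of 60S ribosome assembly, at 0.01. The double-stranded RNA binders Zfp346 and Zfp385a stood at -0.35 and 0.09, and Zfp830 at -0.08. Zfp91, a ubiquitin ligase for the kinase NIK of the non-canonical NF-kB pathway, went from 2556 to 1061 fragments, a log2 ratio of -0.78 (-0.89 to -0.68; corrected -0.65). The SUMO ligase Zfp451 stood at -0.36. The Z3 proteins, which bind one another and chromatin readers, stood at 0.20 (Zfp687), -0.60 (Zfp532) and 0.33 (Zfp592).

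Of 19 listed widely expressed DNA-binding regulators, 18 were measured, with 7 at least 2-fold lower (38.9%, against 13.8% of all measured genes) and 1 higher (5.56%, against 12.1%). The lower ones were Zfp24 at -1.60, Zfp644, a partner of the G9a histone methyltransferase, at -1.40, Zfp131 at -1.28, Zfp281, a repressor known from pluripotent cells, at -1.27, Zfp148 at -1.12, Zfp462 at -1.04 and Zfp664 at -1.02. Their counts were deep, from 587 fragments (Zfp24) to 1540 (Zfp664) in wild-type and from 138 to 542 in p65-null. After correction 0 of the 18 were past 2-fold in either direction, with Zfp148 at 0.01 and Zfp131 at -0.94. Zfp362 was the higher one, at 1.27. Zfp410, known as an activator of Chd4, stood at 0.21, and Zfp143, a promoter factor, at -0.72; Zfp384, Zfp64, Zfp444, Zfp746, Zfp219 and Zfp827 stood at -0.29, 0.01, 0.75, 0.32, 0.72 and 0.21.

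Outside the class of lowest GC, 8 members were at least 2-fold lower. By class of rising GC they were 5 of 47 members (10.6%), 2 of 47 (4.26%), 1 of 29 (3.45%) and 0 of 44. The shares of lower ones among the other genes of these classes were larger, at 13.7%, 8.08%, 6.29% and 5.45%. The 8 members are named here after their values were seen: Zfp105, Zfp697, Zfp131, Zfp566, Zfp462, Zfp184, Zfp664 and Zfp618. Zfp105 went from 82 to 16 fragments (3.66-fold lower; corrected -1.85) and Zfp697 from 301 to 77.5 (2.77-fold lower; corrected -1.52), both with 0% of 50-base words shared. Zfp618 had the highest GC content of them, 55.96%, with 202 and 72 fragments (2.005-fold lower; corrected -1.39).

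The co-repressors that KRAB zinc finger proteins work with are given for comparison. Of 26 listed co-repressor genes 25 were measured, and their median log2 ratio was -0.16 (corrected -0.15). At least 2-fold differences were found for 2 lower genes (8% of the 25, against 13.8% of all measured genes) and 0 higher ones. Their median GC content was 47.7%. Trim28 stood at 0.32 (0.28 to 0.36), at 554 and 691 CPM, and turned to -0.13 after correction, and Setdb1 stood at 0.05 (-0.05 to 0.16). The 2 lower genes were Resf1 at -1.38 and the chromatin remodeller Smarcad1 at -1.55, with corrected values of -0.53 and -0.66. Among 6 HUSH complex genes, 1 stood at least 2-fold lower (16.7%, against 13.8% of all measured genes) and 0 higher (against 12.1%). Their corrected median was 0.02. The lower one was Pphln1 at -1.22 (corrected -0.78), and Tasor and Mphosph8 stood at -0.84 and -0.69 (corrected 0.35 and -0.04).

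Zinc finger genes under other names were measured too. The 160 other measured genes with at least 3 finger motifs had a median of -0.22, with 28 at least 2-fold lower (17.5%) and 18 higher (11.25%). The shares over all measured genes were 13.8% and 12.1%. Of the 160, the 19 with a KRAB box motif had a median GC content of 40.9% and a median log2 ratio of -0.52. Of these 19, 8 were lower (42.1%) and 1 was higher (5.26%). By family, 39 Zbtb genes had a median of 0.04, with 4 lower (10.3%) and 3 higher (7.69%). The median was -0.02 for 8 Zscan genes and 0.20 for 8 Zkscan genes. For 13 Klf genes it was -0.61, with 3 lower (23.1%) and 1 higher (7.69%).

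Promoter windows of 300 bases, from 250 before to 50 after the start in RefSeq, were found for 270 members. A match to the NF-kB consensus on either strand lay in 23 of them (8.52%), against 8.19% of the 27025 windows of all genes and 10.3% of those of measured genes. Members with a match had a median log2 ratio of -0.08 and those without of -0.36, with transcript GC medians of 45.0% and 44.6%. Of the 23 members with a match, 8 were at least 2-fold lower and 4 higher, and 75 of all 270 were lower. Over all measured genes 13.8% were lower and 12.1% higher. After correction the medians of members with and without a match were -0.03 and -0.06. The medians of all measured genes with and without a match, uncorrected, were -0.0015 and -0.019. A match describes letters in the window and no binding was measured.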

How the data were processed

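RNA-seq of total RNA was deposited for 1 p65 wild-type and 1 p65-null library of immortalised mouse embryonic fibroblasts, per the labels. The build was mm10, and STAR 2.4, bcl2fastq 2.16, edgeR and HOMER were used, per the submitters' processing notes, which give no roles; the counting rule, strand use and annotation were not stated. The deposited table holds a scaled signal for 16881 RefSeq transcripts, although it is named as raw counts and counts had been planned for. Within a column every value low enough to check (14951 in wild-type, 15197 in p65-null) was a whole multiple of 1 step, 0.436 in wild-type and 0.587 in p65-null, within 0.0055 (100%), and 72.8% and 75.7% of values of 1 to 20 steps were even. Dividing by the step gave 41588951 and 30882788 reads, and 2 steps were taken as 1 fragment. No count test was run on these reads and 0 genes were called by one, since with 1 library a genotype no spread can be estimated.

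Transcripts were named through RefSeq (16743) and GENCODE M21 (83), with 55 unmatched. Library sizes were normalised with edgeR 4.0.16 in R 4.3.3 (factors 1.02 and 0.981). A count of 0 was set to 3 fragments, so that its ratio depends on this floor. GC content, length and coding sequence came from the GENCODE transcript with the same RefSeq accession, found for all 323 members. Finger motifs (12 residues between the cysteine and histidine pairs) and the KRAB box motif were counted in translated GENCODE coding sequences in place of RefSeq proteins, so a short model, as for Zfp809, may miss them. The loess span was 0.3. The ratio step was tested on simulated data.

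The members, the gene lists and the rule for named genes were chosen with earlier results of these data known. The text names Rela, the 12 lower and 12 higher members whose interval end nearest 0 was farthest from it, and the 5 most abundant. It also names the extremes of each cluster, the listed members, those at the minimum, and Trim28, Setdb1 and 2-fold different co-repressor and HUSH genes. Tasor, Mphosph8, Zfp213, Zfp874a, Chd4 and the genes sharing sequence were named after their values were seen. Alternatives were upper quartile and ribosomal protein scaling, size factors from DESeq2 1.42.0, total counts, thinning of the wild-type library, and the loess corrections. Other minimums, a prior count of 2, other cluster gaps, and the omission of chromosomes X and Y or of members with shared sequence completed them.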

Additional observations from a re-analysis of the deposited data

How the results depend on the processing

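DESeq2 size factors, total counts and thinning of the wild-type library to the other's depth moved no median or named log2 ratio by more than its counting interval and turned the direction of no gene or cluster that was at least 2-fold apart. The summaries depended on scaling, on the GC correction and on the minimum. Ribosomal protein scaling shifts every gene by the same -0.41. With it the median of the members was -0.74, 3 stood at least 2-fold higher (0.929%) and 133 lower (41.2%). The shares over all measured genes under this scaling were 7.59% and 24.7%. With the correction for GC and length the median of the members was -0.087, with 26 lower, and with that for GC alone -0.098, with 26 lower. With a minimum of 5 CPM, 7 of 213 members were higher (3.29%) and 43 lower (20.2%). The shares over all genes kept were 9.03% and 12%. With no minimum, 30 of 367 were higher (8.17%, against 19% of all genes kept). Taking all genes with 3 or more finger motifs, 30 of 454 were higher (6.61%, against 12.1% of all measured genes). The 4-fold counts went from 22 lower and 2 higher to 12 and 0 of 295 with the minimum asked of both libraries. In that setting the shares over all genes kept were 1.79% and 2.19%. Asking for the whole interval past 2-fold left 4 higher and 52 lower. The log2 ratio of Rela was -3.19 with ribosomal protein scaling and -3.23 with either correction. The cause of these moves was not tested.

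Cluster medians are named by chromosome and order along it. Ribosomal protein scaling moved 6-1 to -0.22, 7-1 to 0.37, 7-3 to 0.19, 7-5 to 0.15, 7-7 to -0.70, 7-9 to -0.17, 8-2 to -1.11, 9-1 to -1.28, 13-1 to -1.43, 15-1 to -0.22, 17-2 to -1.95 and 17-3 to -1.68. Upper quartile scaling moved 5-1 to -0.49 and 18-1 to -1.49. Correction for GC and length, and for GC alone, moved 2-1 to -0.14 and -0.18, 5-1 to 0.057 and -0.089, 6-1 to -0.12 and -0.13, and 7-1 to 0.25 and 0.29. They moved 7-7 to 0.16 and 0.15, 9-1 to 0.096 and 0.029, 15-1 to -0.034 and 0.00049, 17-1 to -0.44 and -0.45, and 18-1 to -1.04 and -1.12. Clusters at least 2-fold lower that turned above 0 were 10-1, at 0.0032 and 0.0019, and 13-1, at 0.13 and 0.14. Of the named genes at least 2-fold lower, Zfp148 turned to 0.013 and Zfp26 to 0.042 with the correction for GC and length, and Zfp433 to 0.025 with that for GC alone. Clusters left with under 3 members at a stricter minimum, a smaller gap or without members of shared sequence gave no value.

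No paired analysis was possible because each genotype has 1 library, so there was also no replicate to leave out. Depth limits the members more than most genes, since their median was 199.5 fragments in wild-type and 114 in p65-null, against 598.5 and 404 over all measured genes.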
